A study of Mus musculus with 15 samples.

Results

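Asparagine-linked (N-) glycosylation and the translocation machinery it works with were examined through 36 genes in RNA immunoprecipitation sequencing (RIP-seq) of ST2 cells, a mouse stromal cell line. The members were found by their gene symbols among the 25239 genes of the deposited count table, and all 36 were present. The set was chosen because Rpn1, Ostc and Alg8 gained in the Arid5a relative to the IgG precipitate with IL-17. Those values are therefore only described, and no p is given for these 3 genes. Their libraries all enter that gain, so a count of called members that includes them carries no evidence from them, and the count over the other 33 members, which came with them through their known function, stands beside it. Cells were given IL-17 at 200 ng/mL or medium alone for 3 h, crosslinked with formaldehyde and lysed. RNA was then recovered with an anti-Arid5a antibody or with mouse IgG2b as the control. Arid5a binds RNA and is known for stabilising cytokine transcripts. The 15 libraries were the Arid5a RIP with IL-17 (4), the IgG RIP with IL-17 (3, numbered 2, 3 and 4), the Arid5a RIP in medium (4) and the IgG RIP in medium (4). No library of unprecipitated RNA was used here, so more of an mRNA in the cell and a larger precipitated share of it cannot be told apart within an antibody.

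N-glycans are built on the lipid dolichol at the endoplasmic reticulum (ER) membrane. The ALG enzymes add sugars stepwise, taking the later mannoses and the glucoses from dolichol phosphate carriers made by Dpm1 to Dpm3 and Alg5. The oligosaccharyltransferase (OST) then moves the finished glycan to asparagines of proteins entering the ER through the Sec61 channel, beside which sits the translocon-associated protein (TRAP) complex of Ssr1 to Ssr4. Glucosidases trim the glycan afterwards, and Uggt1 puts a glucose back on proteins that are not yet folded. Stromal cells secrete collagens and other glycoproteins through this route.

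Libraries held 939139 to 5713913 counts. Levels below are CPM (counts scaled to a common library total) after TMM factors, which adjust those totals for composition. The stromal markers Col1a1, Col1a2, Cxcl12 and Sparc were high in every library, whereas Thy1, Lum, Dcn and Postn were low, with Dcn at 0 in 2 libraries. The summed stromal markers ran from 11578 to 18208 CPM, while the haematopoietic, endothelial and epithelial lists reached at most 29.5, 38.7 and 86.5 CPM. The sum of 1492 olfactory and vomeronasal receptor genes, which a stromal cell should not use, was 4062 CPM in Arid5a IL-17 replicate 4, against 1408 to 1806 CPM in its other replicates. It was 2381 to 3371 CPM in IgG IL-17 libraries, 3234 to 4776 CPM in Arid5a medium libraries and 1986 to 3090 CPM in IgG medium libraries. Arid5a IL-17 replicate 4 was also the lowest of its group for 25 of the 36 members, as for 72.5% of the 5394 genes averaging 5 or more in log2 CPM, here called well-expressed. The part of these library differences in the results below was not tested.

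The members together made up 3101 to 3960 CPM in Arid5a IL-17 libraries, 2981 to 3397 CPM in IgG IL-17 libraries, 2703 to 2966 CPM in Arid5a medium libraries and 3170 to 4168 CPM in IgG libraries in medium. By FPKM, which allows for gene length, the small subunits led. Ost4 averaged 330 FPKM over the libraries, Ssr4 242, Dad1 203, Sec61g 182 and Sec61b 112 FPKM. Rpn1 (106 FPKM) and Rpn2 (105 FPKM), the ribophorins of the OST, were level with each other. Of the alternative catalytic subunits, Stt3a, which glycosylates during translocation, averaged 51.5 FPKM and Stt3b, which acts on sites missed by Stt3a, 39.1 FPKM. The partners of Stt3b that carry a thioredoxin fold, Tusc3 and Magt1, averaged 15.1 and 11.3 FPKM. The assembly enzymes were the lowest role as a whole. They ran from 14.04 FPKM for Alg3, which adds the first mannose inside the ER, to 4.37 FPKM for Alg8 and 2.95 FPKM for Alg6, which add the second and the first glucose. Dpm1, the catalytic subunit of dolichol phosphate mannose synthase, was the lowest member at 1.51 FPKM and was listed at 0 in 3 of the IgG medium libraries.

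**Figure D1:**
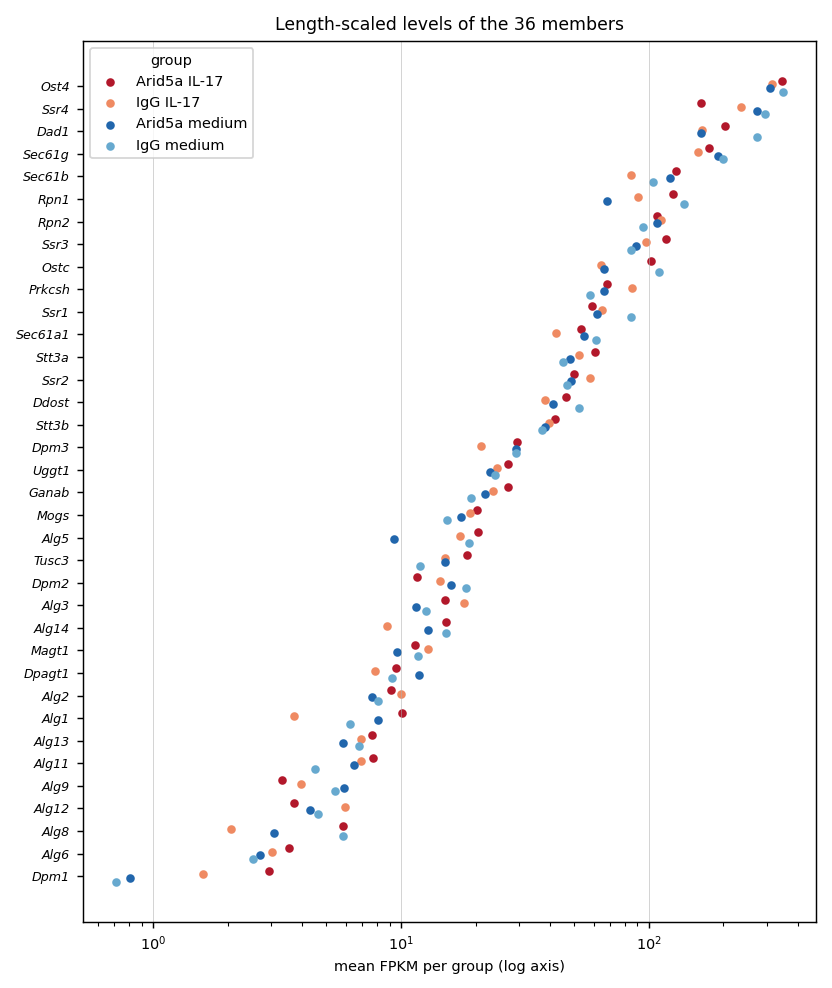
Mean FPKM of each of the 36 genes (log axis) in the Arid5a RIP with IL-17, the IgG RIP with IL-17, the Arid5a RIP in medium and the IgG RIP in medium, ordered by the mean over all libraries. Ost4 (330 FPKM) and Ssr4 (242 FPKM) head the order and Dpm1 (1.51 FPKM) closes it, and the order of the groups differs from gene to gene.

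The DNA just upstream of 4 of the 6 members called higher in the Arid5a RIP with IL-17 than in medium is shown. It lets their proximal promoters be compared. The 4 genes are Rpn1 and Stt3a of the OST, Ssr3 of the TRAP complex and Alg5, the dolichol phosphate glucose synthase. Each line gives the 150 bases before the RefSeq start of the gene (GRCm38.p6), on the strand of the gene, with CCAAT or CCACG on either strand in capitals, the 2 parts of the element that ER stress factors bind. The Rpn1 bases lie at chr6:88084323-88084472 on the plus strand, those of Stt3a at chr9:36767623-36767772 on the minus strand, those of Ssr3 at chr3:65392554-65392703 on the minus strand and those of Alg5 at chr3:54735389-54735538 on the plus strand.
Rpn1: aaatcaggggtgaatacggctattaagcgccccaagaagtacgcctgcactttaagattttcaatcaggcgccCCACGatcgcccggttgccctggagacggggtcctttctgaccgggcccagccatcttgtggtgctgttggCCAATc
Stt3a: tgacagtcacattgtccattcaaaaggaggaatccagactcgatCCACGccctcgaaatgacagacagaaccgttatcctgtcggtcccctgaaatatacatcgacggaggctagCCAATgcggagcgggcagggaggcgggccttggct
Ssr3: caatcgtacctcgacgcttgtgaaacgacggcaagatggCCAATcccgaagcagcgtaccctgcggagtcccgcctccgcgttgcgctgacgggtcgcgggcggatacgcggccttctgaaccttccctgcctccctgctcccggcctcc
Alg5: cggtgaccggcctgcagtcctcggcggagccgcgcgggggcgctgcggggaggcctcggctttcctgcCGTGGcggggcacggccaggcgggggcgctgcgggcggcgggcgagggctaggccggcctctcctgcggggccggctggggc
Rpn1 and Stt3a carried both letters in this window, each 1 time, Ssr3 had CCAAT and Alg5 had CCACG read on the other strand. Of the 36 members, 28 matched the RefSeq promoter table, with 29 promoters. In the 250 bases upstream, both strands searched, CCAAT was in 13 of them (44.8%), against 33.8% of all 32817 promoters. CCACG was in 9 (31.0%), against 28.3%, and ACGTG, which overlaps it in CCACGTG, in 8 (27.6%), against 16.6%. Uggt1, called higher in the same comparison as the 4 genes shown, had neither CCAAT nor CCACG in these bases. Ostc, also called higher there, had no matched promoter. The joined ER stress element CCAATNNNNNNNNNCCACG was in 1, that of Alg12 (3.45%), against 0.113%. The GC box GGGCGG was in 18 (62.1%), against 32.7%. The 32817 promoters were not limited to genes expressed in these libraries, whereas all members passed the filter for testing. Shares over expressed genes alone were not computed. These are letters in a window, not bound sites.

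Rpn1, the most abundant of the 3 genes behind the choice, binds nascent chains for the OST. It had 496, 471, 457 and 396 CPM in Arid5a IL-17 libraries and 218, 409 and 302 CPM in IgG IL-17 libraries. In medium it had 266, 179, 190 and 225 CPM in the Arid5a RIP and 260, 545, 662 and 514 CPM in the IgG RIP. The Arid5a libraries in medium lay below all IgG libraries except replicate 1, which sat among them. With IL-17 they lay above all IgG libraries, except that Arid5a replicate 4 was below IgG replicate 3.

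Ostc, the subunit that links the Stt3a form of the OST to the Sec61 channel, had 112, 93.0, 81.9 and 61.7 CPM in Arid5a IL-17 libraries and 36.8, 65.8 and 60.8 CPM in IgG IL-17 libraries. In medium it had 58.6, 44.2, 47.6 and 60.3 CPM in the Arid5a RIP and 63.1, 97.7, 125 and 102 CPM in the IgG RIP. The medium groups did not overlap, and with IL-17 only Arid5a replicate 4 fell within the IgG range.

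Alg8, the second glucosyltransferase, had 11.3, 11.8, 9.76 and 10.8 CPM in Arid5a IL-17 libraries and 4.50, 2.80 and 3.83 CPM in IgG IL-17 libraries. In medium it had 3.91, 5.37, 5.42 and 5.70 CPM in the Arid5a RIP and 10.8, 6.74, 12.6 and 13.1 CPM in the IgG RIP. Neither pair of groups overlapped, but the counts behind these values were few, between 6 in IgG medium replicate 2 and 54 in Arid5a IL-17 replicate 1.

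**Figure D2:**
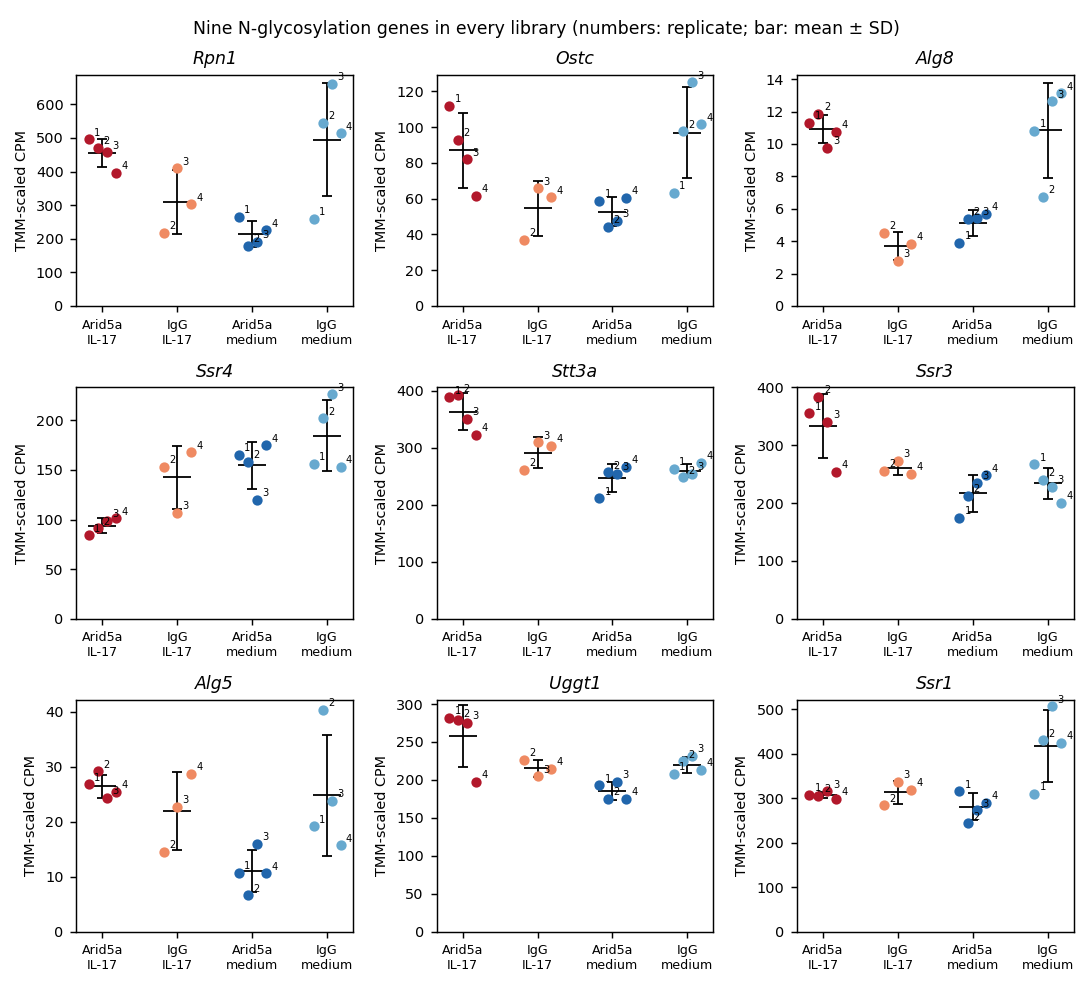
TMM-scaled CPM of 9 genes in each library (points, numbered by replicate, with the mean and SD of each group) for the Arid5a and IgG RIP with IL-17 and in medium. Ssr4 lies at 84.1 to 101 CPM in the Arid5a RIP with IL-17, below all other libraries, and IgG medium replicate 1 lies near the Arid5a medium libraries for Rpn1, Ostc and Ssr1.

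The first comparison set the Arid5a RIP against the IgG RIP in medium. With edgeR's quasi-likelihood test and a Benjamini-Hochberg adjusted p below 0.05, 3 members were lower in the Arid5a RIP and 0 were higher, but 2 of the 3 were genes behind the choice, and of the other 33 members 1 was lower. At an unadjusted p below 0.05 there were 8 members, 5 of them among the other 33, and 12.8% of all genes. Of the 5394 well-expressed genes 1285 reached it, beside 6 of the 21 well-expressed members. Over all 17835 genes tested, 0.572% were called lower and 0.0561% higher, and among well-expressed genes, to which 21 members belong, 1.85% were called lower. The median log2 fold over the members was -0.15, against -0.19 over well-expressed genes, and with factors computed from well-expressed genes alone the median over the members was 0.02 and 0 genes of the table were called in either direction. The 3 genes were Rpn1 (log2 fold -1.20 ± 0.22, SE), Ostc (-0.87 ± 0.21) and, of the 33 members chosen by function, Ssr1.

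Ssr1, the alpha subunit of the TRAP complex, had 315, 244, 273 and 290 CPM in Arid5a medium libraries and 310, 430, 507 and 424 CPM in IgG medium libraries. It fell by 0.57 ± 0.14 on the log2 scale (edgeR adjusted p = 0.0464). Arid5a replicate 1 and IgG replicate 1 overlapped. The call was kept in 3 of 12 other settings and 4 of 15 omissions of a library.

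Of the 10 OST subunits, 2 had a fold above 0 in medium, Tusc3 (0.13 ± 0.21) and Rpn2, as did 1226 of the 5394 well-expressed genes. With factors from well-expressed genes 4 of the 10 did. Dad1, a small subunit needed for a stable complex, averaged 82.5 ± 9.15 CPM in Arid5a medium libraries and 141 ± 45.2 CPM in IgG medium libraries (SD, n = 4 each; log2 fold -0.77 ± 0.20, edgeR adjusted p = 0.0575). Ddost, which anchors the complex, had a log2 fold of -0.52 ± 0.18 (edgeR adjusted p = 0.186). Rpn2, the other ribophorin, averaged 249 ± 5.80 CPM in the Arid5a RIP and 245 ± 84.4 CPM in the IgG RIP (SD, n = 4 each; log2 fold 0.00 ± 0.18). Stt3a (-0.07 ± 0.13) and Stt3b (-0.14 ± 0.15) were near 0, and Ost4 (-0.23 ± 0.16) and Magt1 (-0.41 ± 0.22) were not called. Whether subunits of the complex differed from each other was not tested.

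The receptor genes moved in the opposite way between these libraries, with 3234 to 4776 CPM in the Arid5a RIP and 1986 to 3090 CPM in the IgG RIP, and the part of this in the lower member values was not tested. Outside the OST, Alg5 had a log2 fold of -1.09 ± 0.33 in medium (edgeR adjusted p = 0.128), and Uggt1 -0.24 ± 0.14 (edgeR adjusted p = 0.462). The group ranges of 3 members did not overlap, with Arid5a lower for all of them (Ostc, Alg8 and Uggt1), where 4.05% of all genes tested showed this. Among the 33 members outside the choice it was 1, Uggt1. Of the 5394 well-expressed genes 603 showed this, beside 2 of the 21 well-expressed members. The assembly enzymes had a median of -0.07 over 11 genes, the sugar donor enzymes -0.26 over 4, the trimming enzymes -0.02 over 4, the Sec61 subunits -0.19 over 3 and the TRAP subunits -0.19 over 4.

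The second comparison set the 2 antibodies against each other with IL-17, and its values entered the choice of the set. Under edgeR 0 members were called in either direction, where 0.0561% of genes were called higher and 0.0112% lower. At an unadjusted p below 0.05 there were 9 members, or 6 of the other 33, where 8.95% of all genes reached it. Of the 5394 well-expressed genes 759 did, beside 6 of the 21 well-expressed members. DESeq2 called 0 members. The limma voom fit, which called 1.52% of all genes higher, called 1 member, Ostc, which is a gene behind the choice. As these values entered the choice, the counts are no evidence about the members. As a description only, 22 of the other 33 members had a fold above 0, as did 4083 of the 5394 well-expressed genes. The median log2 fold was 0.26 over all members, 0.17 over the other 33 and 0.15 over well-expressed genes. Groups did not overlap for 5 members that were higher (Stt3a, Alg14, Alg1, Alg8 and Sec61a1, so 4 of the other 33), where 5.3% of genes showed this, and for 1 that was lower (Ssr4), where 4.39% did. Of the 5394 well-expressed genes 605 were higher without overlap, beside 2 of the 21 well-expressed members, and 74 were lower, beside 1.

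Sec61a1, the channel-forming subunit, had 177, 161, 160 and 137 CPM in Arid5a IL-17 libraries and 133, 108 and 117 CPM in IgG IL-17 libraries (log2 fold 0.41 ± 0.17). Alg14, which with Alg13 adds the second N-acetylglucosamine, had 32.1, 34.2, 21.1 and 30.6 CPM in the Arid5a RIP and 17.6, 15.8 and 15.8 CPM in the IgG RIP (0.84 ± 0.29). Alg1, which adds the first mannose, had 15.5, 21.0, 17.6 and 11.3 CPM in the Arid5a RIP and 8.78, 5.25 and 2.87 CPM in the IgG RIP (1.48 ± 0.50). In all 3 the lowest Arid5a library was above the highest IgG library, but none was called by edgeR. This comparison entered the choice of the set, so the values are description only. Alg1 had few counts in IgG IL-17 libraries (40.9, 14.8 and 6.44).

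**Figure D3:**
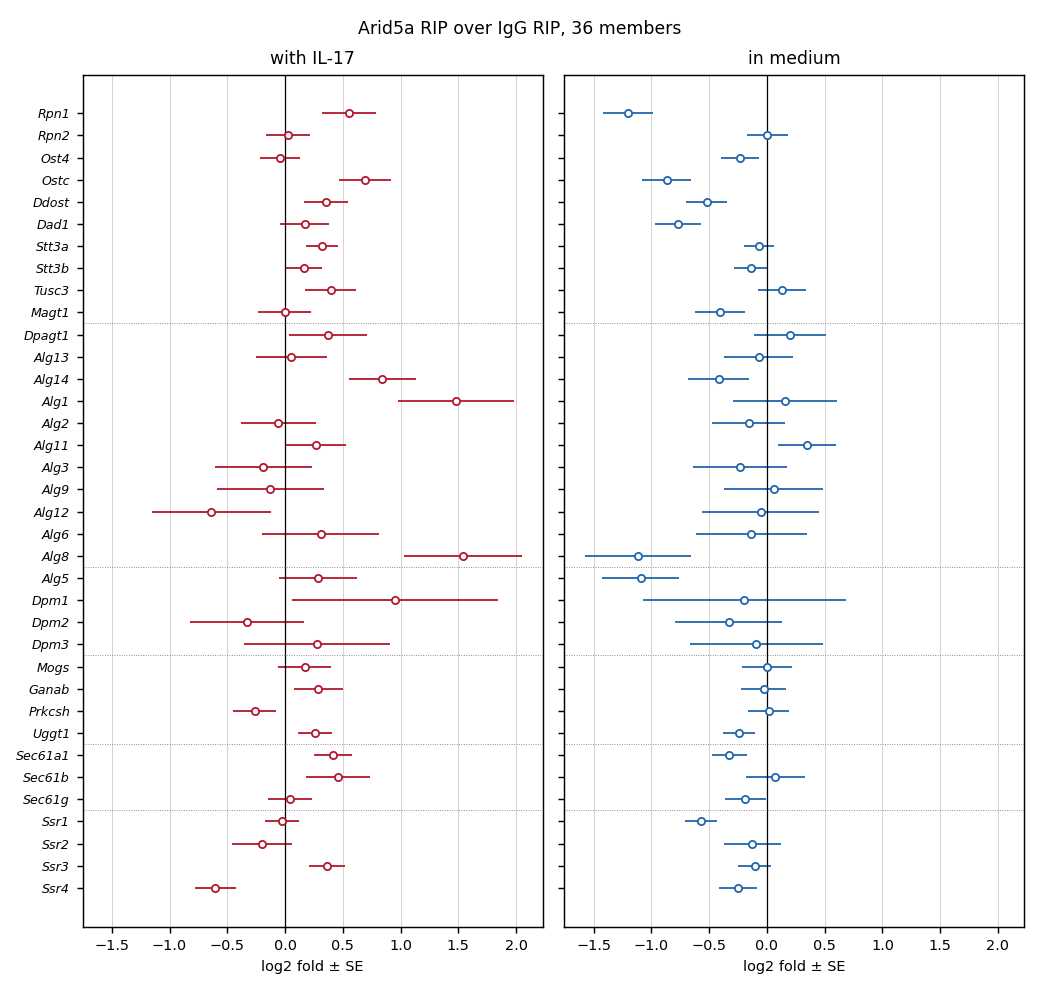
Log2 fold of the Arid5a RIP over the IgG RIP with IL-17 (left) and in medium (right) for the 36 genes, with the SE of the fit and dotted lines between roles. Rpn1, Ostc and Alg8 lie right of 0 with IL-17 (0.56, 0.69 and 1.54) and left of it in medium (-1.20, -0.87 and -1.11).

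The change of the Arid5a over IgG ratio with IL-17 against medium is the value by which the set was chosen, so it is described only. The 3 genes behind the choice, Rpn1 (log2 gain 1.76 ± 0.32), Ostc (1.56 ± 0.31) and Alg8 (2.65 ± 0.69), were taken from the 0.869% of all genes called higher in it (0.107% were lower), so their place there was fixed by the choice. By size alone the next gains were those of Alg5 (1.38 ± 0.48), Alg1 (1.32 ± 0.67), Alg14 (1.26 ± 0.39) and Dpm1 (1.14 ± 1.26). The median gain over the members, 0.34, equalled that over well-expressed genes, 0.34, and over the other 33 members it was 0.30. With factors from well-expressed genes the gains were 1.42 for Rpn1, 1.22 for Ostc and 2.32 for Alg8, the median over the members was -0.01 and 0 genes of the table were called in this contrast. The gain has 2 parts. By group means all 3 genes were higher with IL-17 than in medium in the Arid5a RIP and lower with IL-17 than in medium in the IgG RIP. In the IgG RIP the libraries with IL-17 and in medium overlapped for Rpn1 and Ostc, and edgeR called none of the 3.

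The treatment was compared next within each antibody. In the Arid5a RIP, 6 members were higher with IL-17 than in medium and 1 was lower. These were Rpn1 (log2 fold 1.08 ± 0.22) and Ostc (0.72 ± 0.21) of the genes behind the choice, and, of the other 33, Stt3a, Ssr3, Alg5 and Uggt1, with Ssr4 lower. Among all genes tested 4.84% were called higher and 0.813% lower. Among well-expressed genes 15.4% were called higher and 0.593% lower, beside 5 higher calls among the 21 well-expressed members, Rpn1 and Ostc included. The median log2 fold was 0.40 over the members and 0.30 over well-expressed genes. With factors from well-expressed genes 0 members were called higher under edgeR, and the folds were 0.95 for Alg5, 0.78 for Rpn1, 0.41 for Ostc, 0.30 for Ssr3, 0.25 for Stt3a and 0.16 for Uggt1, with a median of 0.10 over the members. Among the 15 omissions of a library the call was kept in 15 for Stt3a, 13 for Ssr3, 10 for Alg5 and 8 for Uggt1. Among 12 other settings it was kept in 7 for Stt3a, 7 for Ssr3, 7 for Alg5 and 6 for Uggt1. Groups did not overlap for 9 members that were higher (Rpn1, Ostc, Stt3a, Tusc3, Alg6, Alg8, Alg5, Dpm1 and Ssr3, so 6 of the other 33), where 10.7% of genes showed this, and for 2 that were lower (Alg9 and Ssr4), where 9.25% did. Of the 5394 well-expressed genes 1564 were higher without overlap, beside 5 of the 21 well-expressed members, and 77 were lower, beside 1. Markers of other cell types and the receptor genes lay lower with IL-17 in replicates 1, 2 and 3, while replicate 4 lay within the medium range for all these lists but the haematopoietic one. The receptor sum was 1408 to 4062 CPM with IL-17 and 3234 to 4776 CPM in medium, the haematopoietic sum 16.1 to 20.8 CPM with IL-17 and 21.2 to 27.7 CPM in medium, the endothelial sum 6.38 to 31.4 CPM with IL-17 and 26.8 to 36.3 CPM in medium, and the epithelial sum 9.43 to 30.6 CPM with IL-17 and 26.5 to 39.4 CPM in medium. Their part in the member folds was not tested.

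Ssr4, the delta subunit of the TRAP complex, had 84.1, 91.2, 99.0 and 101 CPM in Arid5a IL-17 libraries and 166, 158, 120 and 175 CPM in Arid5a medium libraries. It fell by 0.72 ± 0.16 on the log2 scale (edgeR adjusted p = 0.00632), against the direction of the other calls, and the groups did not overlap. The call of Ssr4 was kept in all 12 other settings and all 15 omissions of a library, with log2 folds from -1.01 to -0.66. In the IgG RIP Ssr4 had 153, 107 and 168 CPM with IL-17 and 156, 202, 226 and 153 CPM in medium (log2 fold -0.36 ± 0.18, edgeR adjusted p = 0.444). The change differed between the antibodies by -0.36 ± 0.24 on the log2 scale, a value of the contrast behind the choice that is given without a test. With IL-17 every Arid5a library held less Ssr4 than any IgG library (log2 fold -0.60 ± 0.18).

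Its partners in the complex did otherwise. Ssr3, the gamma subunit, had 355, 384, 341 and 254 CPM in Arid5a IL-17 libraries and 175, 212, 235 and 248 CPM in Arid5a medium libraries. It rose by 0.62 ± 0.14 on the log2 scale (edgeR adjusted p = 0.00748), and replicate 4 with IL-17 was only just above the highest medium library. Ssr1 (0.13 ± 0.14, edgeR adjusted p = 0.588) and Ssr2, the beta subunit (0.17 ± 0.24, edgeR adjusted p = 0.699), had no call. Subunits of 1 complex were thus called in opposite directions in the same libraries, but the call of Ssr3 was kept in only 7 of 12 other settings. It was lost with upper-quartile factors, library totals, factors from well-expressed genes and both FPKM scales.

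Stt3a had 388, 392, 351 and 322 CPM in Arid5a IL-17 libraries and 211, 257, 255 and 266 CPM in Arid5a medium libraries. It rose by 0.56 ± 0.13 (edgeR adjusted p = 0.00741), and the groups did not overlap. Its alternative, Stt3b, averaged 185 ± 20.7 CPM with IL-17 and 146 ± 8.04 CPM in medium (SD, n = 4 each; log2 fold 0.34 ± 0.15, edgeR adjusted p = 0.162). All 10 OST subunits, Rpn1 and Ostc included, had a fold above 0 in this comparison, as did 4583 of the 5394 well-expressed genes. The folds ran from 0.06 for Ost4 to 1.08 for Rpn1, with a median of 0.40. With factors from well-expressed genes 7 of the 10 were above 0.

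Alg5 had 26.8, 29.2, 24.3 and 25.5 CPM in Arid5a IL-17 libraries and 10.8, 6.61, 15.96 and 10.6 CPM in Arid5a medium libraries. It rose by 1.25 ± 0.32 (edgeR adjusted p = 0.0164), with a wide gap between the groups. In the IgG RIP it had 14.6, 22.8 and 28.7 CPM with IL-17 and 19.2, 40.4, 23.8 and 15.7 CPM in medium, which overlapped (log2 fold -0.12 ± 0.35, edgeR adjusted p = 0.944). The other donor enzymes, Dpm1 (1.98 ± 0.85), Dpm2 (-0.37 ± 0.45) and Dpm3 (-0.19 ± 0.57), had low counts and wide errors and were not called.

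Uggt1, the folding sensor, had 282, 278, 275 and 197 CPM in Arid5a IL-17 libraries and 193, 175, 198 and 175 CPM in Arid5a medium libraries. It rose by 0.48 ± 0.14 (edgeR adjusted p = 0.0296), while replicate 4 with IL-17 lay within the medium range. Ganab, the catalytic subunit of glucosidase II (0.52 ± 0.19, edgeR adjusted p = 0.103), its partner Prkcsh (0.21 ± 0.17) and Mogs, which removes the outermost glucose (0.40 ± 0.21), were above 0 without a call.

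Among the assembly enzymes 0 of 11 were called under edgeR, 2 had an unadjusted p below 0.05 (22.3% of all genes), and limma voom, which called 18.9% of all genes higher here, called 4 of them higher, Alg3, Alg11, Alg13 and Alg8, the last a gene behind the choice. Their median fold was 0.46. Alg11, the cytosolic mannosyltransferase with the highest CPM of this role, had 41.3, 45.6, 35.4 and 33.1 CPM with IL-17 and 20.2, 31.4, 25.6 and 33.4 CPM in medium (log2 fold 0.49 ± 0.24, edgeR adjusted p = 0.218). The Sec61 subunits stayed near 0, with Sec61a1 at 0.16 ± 0.15, Sec61b at -0.05 ± 0.25 and Sec61g at -0.12 ± 0.18.

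**Figure D4:**
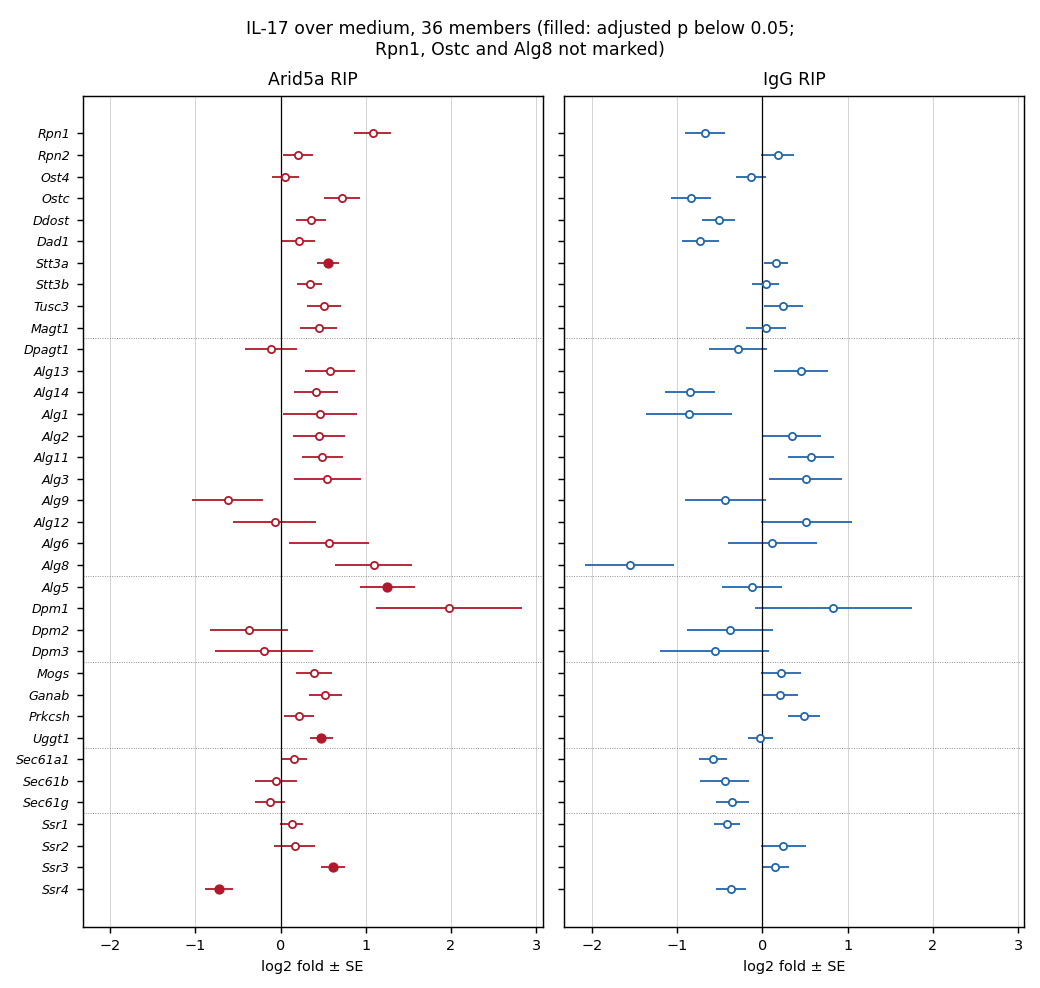
Log2 fold of IL-17 over medium in the Arid5a RIP (left) and in the IgG RIP (right) for the 36 genes, with the SE of the fit. Filled points passed the adjusted threshold (Stt3a, Ssr3, Alg5 and Uggt1 higher, Ssr4 lower, all in the Arid5a RIP), and Rpn1, Ostc and Alg8 are not marked.

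In the IgG RIP, the control precipitate, 0 members were called by edgeR between IL-17 and medium in either direction. Over all genes 0.258% were called higher and 0.235% lower. At an unadjusted p below 0.05 there were 11 members, or 8 of the other 33, and 11.1% of all genes reached it. Of the 5394 well-expressed genes 1013 did, beside 8 of the 21 well-expressed members. DESeq2, which called 1.15% of all genes lower, called Sec61a1 and 2 genes behind the choice, Alg8 and Ostc, and limma voom called 0 members. The median log2 fold was -0.07 over the members and -0.04 over well-expressed genes. The folds of the genes behind the choice were -0.68 ± 0.23 for Rpn1, -0.84 ± 0.23 for Ostc and -1.56 ± 0.52 for Alg8.

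Several other members were low with IL-17 in the IgG RIP without a call. Sec61a1 had 133, 108 and 117 CPM with IL-17 and 136, 218, 199 and 166 CPM in medium (log2 fold -0.58 ± 0.17, edgeR adjusted p = 0.114), and the groups did not overlap. Dad1 had 72.8, 71.8 and 112 CPM with IL-17 and 83.9, 125, 172 and 182 CPM in medium (-0.73 ± 0.22, edgeR adjusted p = 0.135). Alg14 had 17.6, 15.8 and 15.8 CPM with IL-17 and 24.1, 25.8, 39.0 and 28.8 CPM in medium (-0.85 ± 0.29, edgeR adjusted p = 0.217). For Dad1 and Sec61a1 the lowest medium library was IgG medium replicate 1, and without it edgeR called 0.971% of all genes lower in this comparison and 4 members, Dad1 and Sec61a1 with Ostc and Rpn1 of the genes behind the choice. It also called Dpm1 higher, against a group then at 0 in all libraries (0.48% of all genes were higher). Prkcsh leaned the other way, at 159 ± 11.5 CPM with IL-17 (SD, n = 3) and 111 ± 31.6 CPM in medium (SD, n = 4; log2 fold 0.49 ± 0.19, edgeR adjusted p = 0.29). Groups did not overlap for 3 members that were higher (Alg11, Alg13 and Prkcsh), where 4.27% of genes showed this, and 3 that were lower (Alg8, Alg14 and Sec61a1, so 2 of the other 33), where 3.32% did. Of the 5394 well-expressed genes 265 were higher without overlap and 344 lower, beside 1 and 1 of the 21 well-expressed members.

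A further 61 genes of the pathway, all tested, were followed beside the members. In medium 1 of them was called between the antibodies, Spcs1, a subunit of the signal peptidase that cuts proteins at the Sec61 channel. It fell by 0.80 ± 0.20 in the Arid5a RIP (edgeR adjusted p = 0.047). Of the 61 genes 0 were called in this comparison with factors from well-expressed genes, nor when 1 library other than IgG medium 1, IgG IL-17 3 or 4 or Arid5a IL-17 4 was left out. With IL-17 0 were called between the antibodies under edgeR and 7 had an unadjusted p below 0.05, where 8.95% of all genes did. Spcs1 also had the gain of the genes behind the choice (log2 1.32 ± 0.29) and was the 1 gene of the list lower with IL-17 in the IgG RIP (-0.90 ± 0.22, edgeR adjusted p = 0.045). In that comparison 0 of the 61 were called lower when 1 library other than IgG medium 1 or Arid5a IL-17 4 was left out. In the Arid5a RIP, 8 of the 61 rose with IL-17 and 0 fell, where 4.84% of all genes and 15.4% of well-expressed genes were called higher. With factors from well-expressed genes 0 of the 61 were called and 0.645% of all genes were higher. The 6 with the smallest p were Srp14, a signal recognition particle subunit (0.84 ± 0.16), Sec63, a translocon partner (0.54 ± 0.15), Nus1, of dolichol synthesis (0.53 ± 0.15), Gfpt1, of UDP-N-acetylglucosamine supply (0.58 ± 0.17), the lectin chaperone Calr (0.43 ± 0.13) and Mgat2, of Golgi branching (0.53 ± 0.16). Their edgeR adjusted p ran from 0.00117 to 0.0475. The median over the 61 genes was 0.30 in that comparison, the same as over well-expressed genes.

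The members lie on 16 chromosomes, and 11 of them overlap another gene model in RefSeq GRCm38.p6, among them Rpn1 with Mir6376, Rpn2 with Mroh8, Ost4 with Agbl5, Alg1 with Eef2kmt, Ssr1 with Gm52041, Uggt1 with Mir6897, Gm18750 and Gm39625, and Dpm1 with Gm20716. Whether strand was used in counting is not given in the sources used here, so reads of such a neighbour could be counted for them. Ostc, Stt3a, Ssr3, Ssr4, Alg5 and Alg8 overlap none there.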

How the data were processed

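RIP-seq libraries of ST2 cells were analysed from the deposited gene table of expected counts, for which the labels name STAR 2.7.9, RSEM 1.3.1, DESeq2 1.36.0, R 4.3.0 and mm10. Which tool did what, the gene annotation and whether counting used strand are not given in the sources used here. The authors deposited FPKM for the same genes, used here for levels between genes and as an alternative. Between 2.66% and 10.3% of the expected counts in a library were not whole, and they were rounded. In R 4.3.3, edgeR 4.0.16 tested the 17835 genes passing filterByExpr, all 36 members among them, with TMM factors and robust quasi-likelihood fits of 4 group means over 15 libraries. Folds are log2 with SE, and p-values were adjusted by Benjamini-Hochberg over all genes tested. The common biological coefficient of variation was 0.341. DESeq2 1.42.0, limma 3.58.1 voom, and limma on log2(FPKM + 1) or log2(FPKM + 0.1) were alternatives, as were other scalings, filters and omissions of libraries. The edgeR script was tested on simulated counts. Same-group libraries correlated at 0.793 to 0.960, and no 2 libraries were alike within sampling noise. The labels do not say whether libraries came from separate cultures, so p-values measure the spread between these libraries. They give no batch. Members, pathway lists and the rule for naming genes (the genes behind the choice, each member called in any comparison and the most abundant member of each role get values per library, and other pathway genes are named where called, up to 6 by p) were chosen with earlier results of these data known. Outside that rule, Alg1, Alg14 and Dad1 were also given values per library, with their values known. Promoter sequences are from RefSeq GRCm38.p6.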

Additional observations from a re-analysis of the deposited data

Results flagged for a closer look

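In 6 of 108 sets of 4 libraries (a member in a group), 1 library stood apart from the other 3 by more than Dixon's 95% critical value for the gap over the range. Chance gives about 1 in 20 such sets. Uggt1 had 197.3 CPM in Arid5a IL-17 replicate 4, against 274.9 to 281.6 CPM in the others, and Mogs 62.66 CPM in Arid5a IL-17 replicate 2, against 50.93 to 52.66 CPM. In the IgG RIP in medium, replicate 2 was low for Rpn2, at 119 CPM against 278.4 to 299.7 CPM, and for Alg6, at 1.123 CPM against 9.029 to 10.57 CPM. Replicate 4 was low for Sec61g, at 93.19 CPM against 117.2 to 122.1 CPM. Dpm1 had 5.959 CPM in replicate 1 and was listed at 0 in the other 3 libraries of that group.

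The Arid5a over IgG ratio differed between IL-17 and medium for Rpn1 (log2 difference 1.76), Ostc (1.56) and Alg8 (2.65). The set was chosen by this contrast, and these values are no independent evidence of it.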

How the results depend on the processing

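Counts of members called depended on the scaling in 3 of the 5 comparisons. In medium, Arid5a against IgG had 3 calls, of which 1, Ssr1, was among the 33 members outside the choice. There were 0 with upper-quartile factors, library totals, TMM factors from well-expressed genes, the compared libraries only, log2(FPKM + 1), log2(FPKM + 0.1) or both IgG medium 2 and IgG IL-17 4 removed. Leaving out 1 library gave 0 to 4 calls, with 0 without IgG medium 2 or 3 or Arid5a medium 2, 3 or 4. There was 1, Rpn1, a gene behind the choice, without IgG medium 4, Arid5a medium 1, IgG IL-17 2 or Arid5a IL-17 1, 2 or 3. There were 4 (with Dad1) without IgG medium 1, IgG IL-17 4 or Arid5a IL-17 4, where 1.77%, 0.645% and 0.733% of all genes were called lower. DESeq2 (1.83% of all genes lower) called the same 4, and voom (0.662% lower) called Dad1, Ostc and Ssr1. With IL-17 the 0 calls became 1 under voom and stayed 0 to 0 in all omissions. The change of the ratio had 3 calls, the genes behind the choice, and 0 under both FPKM scales, upper-quartile factors, library totals or well-expressed factors. Under voom it had 9, where 5.26% of all genes were higher and 4.6% lower. Leaving out 1 library gave 0 to 7. These were 0 without Arid5a medium 3, IgG IL-17 2 or Arid5a IL-17 1 or 2. The count was 1, Rpn1 or Ostc, without IgG medium 3, Arid5a medium 2 or IgG IL-17 4. It was 5 without IgG medium 1 (2.12% of all genes higher) and 7 without Arid5a IL-17 4 (2.87% higher). Rpn1, Ostc and Alg8 are in the counts of 9, 5 and 7. As this contrast chose the set, its counts are no evidence about the members.

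In the Arid5a RIP the 7 calls for IL-17 held 4 higher and 1 lower among the 33 members outside the choice. The 7 became 2 (Rpn1 and Ssr4) with upper-quartile factors or library totals and 1 (Ssr4) with well-expressed factors or either FPKM scale. They became 11 with the compared libraries only (12.2% of all genes higher, 6.65% lower) and 19 under voom (18.9% and 23.1%). Rpn1, Ostc and Alg8 are in the counts of 11 and 19. Omissions gave 3 to 8, with 3 without Arid5a medium 1 or Arid5a IL-17 2 and 4 without Arid5a medium 2 or 4 or Arid5a IL-17 1. In the IgG RIP the 0 calls became 3 under DESeq2 (1.15% of all genes lower) and 1 (Dad1) with both IgG libraries removed (0.184% lower). They became 0 to 5 in omissions, with 5 without IgG medium 1 (0.48% of all genes higher, 0.971% lower). The cause was not tested. Deviations of same-numbered libraries from their group means correlated at -0.121 to 0.193. The labels do not say whether equal numbers share a culture. Noise between precipitates could hide a shared one, so these values cannot settle whether the samples are paired. With the replicate block the medium comparison had 1 call, Rpn1, and the other counts moved by at most 1.5 times.

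Scaling also moved calls over all genes. For Arid5a against IgG in medium, 10 were higher and 102 lower, against 21 and 327 under DESeq2, 2 and 2 with upper-quartile factors and 0 and 0 with well-expressed factors. For IL-17 in the Arid5a RIP, 863 were higher and 145 lower, against 804 and 563 under DESeq2, 202 and 119 with upper-quartile factors and 115 and 206 with well-expressed factors. Low counts limit Dpm1, Dpm3, Alg1 and Alg6, which had 2 or fewer counts in at least 1 library.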
